A study of Homo sapiens with 3 samples.

Results

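Ribosome biogenesis and nucleolar protein genes were examined in a table of RNA recovered with CTCF, the zinc-finger protein that organises chromatin loops. The genes were chosen by name: protein-coding entries whose symbol is UTP, NOP, NOL or BOP followed by a digit, together with NCL, NPM1, FBL, NOLC1, NOC2L, NOC3L and NOC4L. In all, 34 such genes, called members here, were listed, among 12220 protein-coding genes and 17201 genes of all classes. The reference names hold 37 genes under the same rule, and BOP1, NOL4 and NOL12 were not in the table under their present identifiers. An identifier that has changed since would look the same as an absent gene, so no level is given for these 3.

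The cells were U2OS, a human osteosarcoma line, with no genetic change or drug named in the labels. They were given 400 µM 4-thiouridine for 16 to 24 h and irradiated with 400 mJ/cm2 at 365 nm, so that proteins touching the labelled RNA became crosslinked to it (PAR-CLIP). CTCF was then precipitated from nuclear lysates, and the RNA in the labelled band was sequenced. The single table analysed here is the merge of 2 biological replicates, which were made with separate lots of 1 antibody. Neither replicate's own values, a control precipitation, an input library nor the RNA abundance of U2OS was analysed here. Every value below is therefore a level in 1 merged bulk sample, without replicate error, and recovery with CTCF cannot be told apart from how much of an RNA the nuclei held, or in how many cells. The counts of the table summed to 1322047, from 6 to 6801 per gene. Of 12 markers of osteosarcoma and mesenchymal cells, 10 were listed (8 to 1277 counts), COL1A2 and TWIST1 being the others. Of 4 blood and 2 liver markers 0 were listed, while 3 of 4 epithelial markers (13 to 206 counts, EPCAM not listed) and all 3 neuronal markers (6 to 144) were.

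Ribosomes are assembled in the nucleolus, where RNA polymerase I makes a long precursor of the ribosomal RNAs. The small-subunit processome, which holds most UTP proteins, folds and cleaves the part that becomes the small subunit, while other factors build the large one. Small nucleolar RNAs (snoRNAs) guide chemical modification of the precursor. Those of the box C/D class sit in a particle with fibrillarin (FBL), NOP56 and NOP58, and those of the H/ACA class in a particle that contains NOP10. Many snoRNAs are cut from introns of genes for nucleolar and ribosomal proteins, so that the genes of this system also carry its guide RNAs.

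The stretch before the start of transcription is shown for 4 genes on which the values below turn: NCL, NOP56 and UTP3, which had the most counts per kb among the members, and NOP10, which had the fewest counts. Each sequence is the 250 bases before the RefSeq start site, 5′ to 3′ on the strand of the gene, credited to RefSeq. Capitals mark matches on either strand to 5 short patterns. These were 9 letters from the CTCF motif, with the letters CCANNAGGG, and the E-box, which reads CACGTG and is bound by MYC among other factors. The ETS site was searched as CCGGAAG. The CCAAT box was searched as its own letters, and the TATA box, a site of the general transcription machinery, was searched as TATAAA. Matches of different patterns were allowed to overlap.

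NCL, GRCh38.p14 chr2:231464485-231464734, minus strand: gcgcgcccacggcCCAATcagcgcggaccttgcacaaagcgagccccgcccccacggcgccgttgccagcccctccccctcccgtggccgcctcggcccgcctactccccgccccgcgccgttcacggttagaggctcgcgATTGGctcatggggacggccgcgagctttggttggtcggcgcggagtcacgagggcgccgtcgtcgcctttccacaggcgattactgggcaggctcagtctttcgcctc

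NOP56, GRCh38.p14 chr20:2652382-2652631, plus strand: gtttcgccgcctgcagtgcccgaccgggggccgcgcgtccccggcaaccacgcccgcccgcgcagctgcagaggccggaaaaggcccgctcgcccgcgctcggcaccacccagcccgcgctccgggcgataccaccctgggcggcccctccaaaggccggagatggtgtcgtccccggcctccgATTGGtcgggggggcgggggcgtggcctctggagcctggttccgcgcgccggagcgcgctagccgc

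UTP3, GRCh38.p14 chr4:70688282-70688531, plus strand: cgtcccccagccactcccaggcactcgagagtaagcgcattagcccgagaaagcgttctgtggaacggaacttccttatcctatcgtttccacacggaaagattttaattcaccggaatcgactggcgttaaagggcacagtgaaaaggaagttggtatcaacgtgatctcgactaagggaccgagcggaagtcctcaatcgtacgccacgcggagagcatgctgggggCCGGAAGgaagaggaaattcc

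NOP10, GRCh38.p14 chr15:34343137-34343386, minus strand: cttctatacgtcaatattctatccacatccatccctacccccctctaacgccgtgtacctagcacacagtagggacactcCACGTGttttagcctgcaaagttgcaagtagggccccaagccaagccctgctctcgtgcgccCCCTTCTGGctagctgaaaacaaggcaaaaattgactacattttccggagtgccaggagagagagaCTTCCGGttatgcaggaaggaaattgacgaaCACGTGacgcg

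NCL held 2 CCAAT boxes and NOP56 held 1, each of them without a match to the other 4 patterns, and UTP3 held a single ETS site. NOP10, the member at the floor of the table, held the part of the CTCF motif, a pair of E-boxes and an ETS site. A window was found for 30 of the 34 members. The E-box lay in 7 of the 30 (23.3%), against 6.34% of 35116 promoter windows, and the ETS site in 10 (33.3%), against 8.52%. The part of the CTCF motif lay in 4, NOL3, NOL6, NOP10 and NOP2 (13.3%, against 5.55%). CCAAT was found in 9 (30.0%, against 32.0%) and TATAAA in 2 (6.67%, against 10.7%). The windows of all genes include non-coding ones, and the patterns were chosen after the counts had been seen. A match describes the letters only.

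The members had more counts than the listed protein-coding genes as a whole. Their median was 87 counts (quartiles 34.25 and 174.75), from 6 for NOP10 to 819 for NCL, beside a median of 43 (quartiles 17 and 104) for all 12220. Of the 34, 15 (44.1%) had 100 counts or more, against 26.1% of all listed protein-coding genes. Together they held 5022 counts, 0.441% of the protein-coding sum (95% Clopper-Pearson interval 0.428 to 0.453%), while being 0.278% of the genes. This sum rested in large part on NCL, NOL10 and NOP56, which held 37.9% of it. The exact 95% Poisson interval of the count lay wholly above 43 for 21 members (61.8%, against 42.2% of all listed protein-coding genes), wholly below it for 6 (17.6%, against 40.5%), and held it for 7. These intervals, like all those given here, cover counting error only, and molecules amplified by PCR are not independent.

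**Figure D1:**
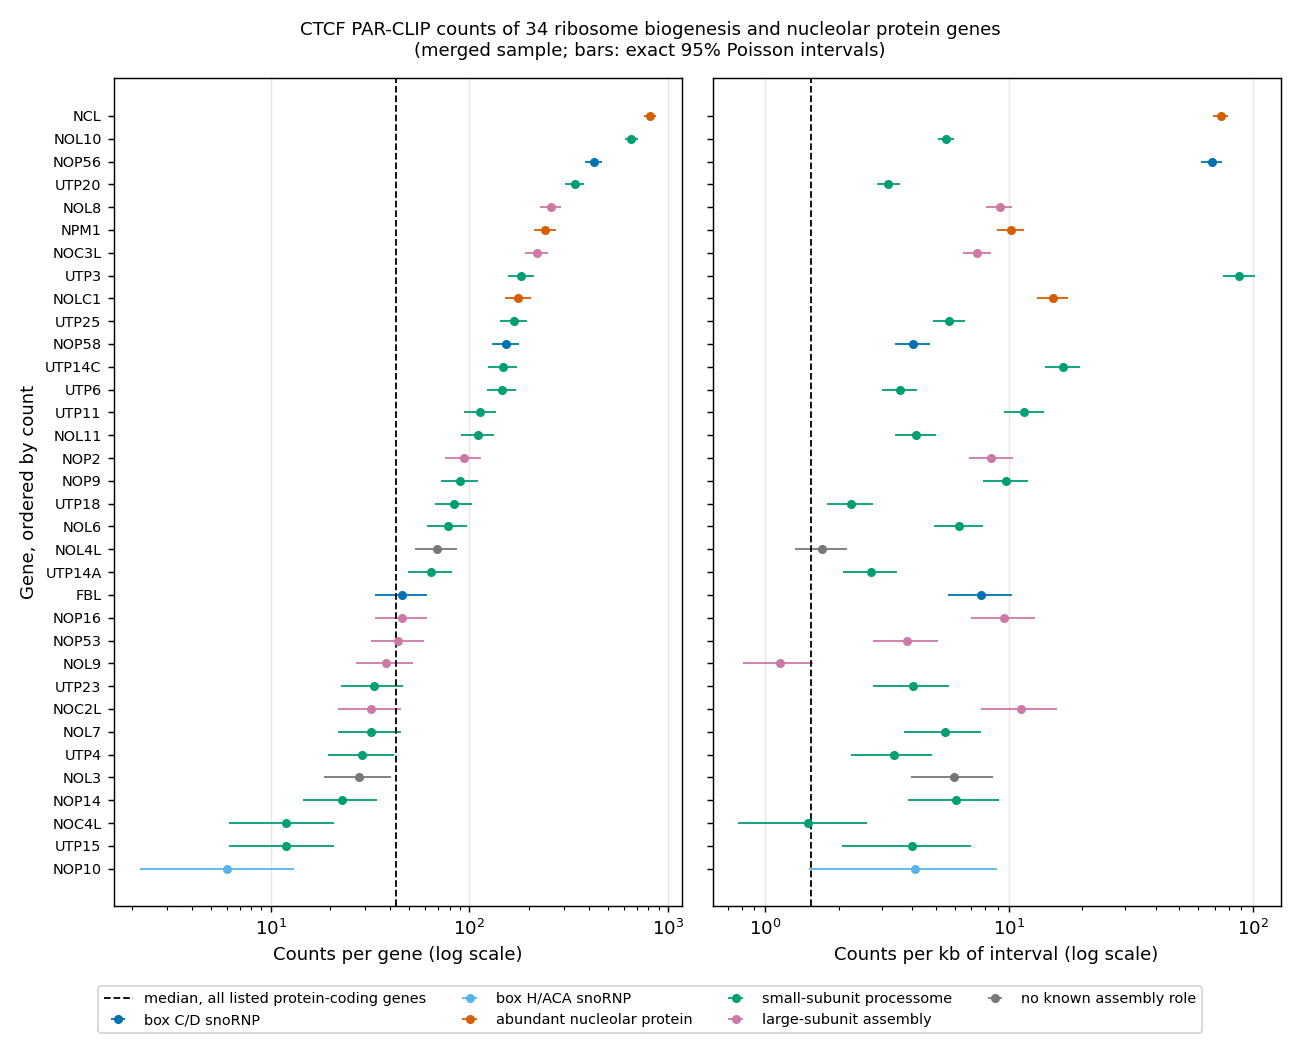
Counts per gene (left) and counts per kb of the deposited interval (right) for the 34 members, on log axes, with exact 95% Poisson intervals as bars and colours for roles. Dashed lines mark the medians of all listed protein-coding genes (43 counts; 1.54 per kb); on the right NCL, NOP56 and UTP3 stand apart, above 50 per kb.

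The members' intervals were short, which bears on both scales. The median interval was 11.1 kb (1.46 to 119 kb), beside 30.2 kb for all listed protein-coding genes. Longer intervals tended to have more counts, with a rank correlation (Spearman's rho) of 0.57 across the 34 members and 0.43 across all listed protein-coding genes, all of which share 1 library. Per kb, the members' median was 5.82 counts, beside 1.54, and 32 of 34 exceeded 1.54, as 50% of all listed protein-coding genes do by definition. Only NOL9 (1.14 per kb) and NOC4L (1.501) were lower. The table's minimum of 6 counts raises this scale for short genes, since any listed gene as short as NOP10 has at least 4.10 counts per kb. Each member was therefore also placed among protein-coding genes of similar length, in 10 equal length groups. In that comparison 30 of 34 lay above the median of their group, against 49.6% of all listed protein-coding genes, and 12 (35.3%) lay at percentile 90 or higher, against 9.99%. The other 4 were NOL9, NOC4L, UTP15 and NOP10, at percentiles 39.5, 26.8, 36.2 and 3.93 of their groups.

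**Figure D2:**
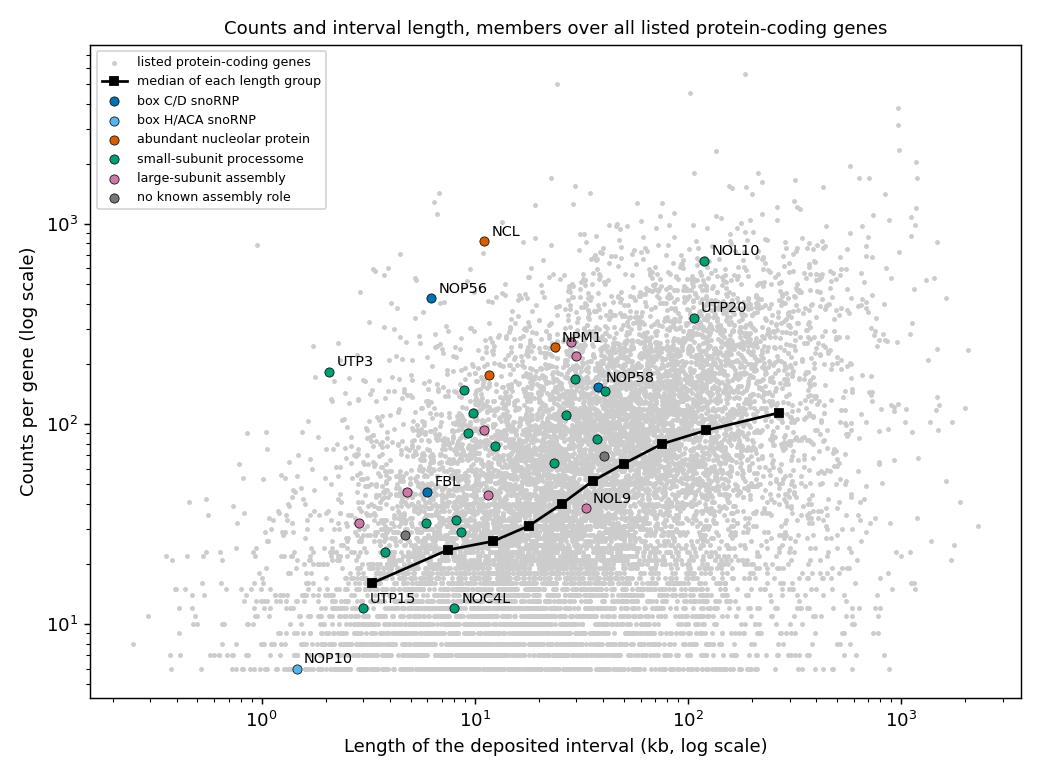
Counts per gene against the length of the deposited interval in kb, both on log axes, for the members (coloured by role) over the 12220 listed protein-coding genes (grey). Black squares join the median of each of the 10 length groups; 30 members lie above the median of their group, and NCL and NOP56 lie far above genes of their length.

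Abundant nucleolar proteins had the highest counts of the groups defined by role, with a median of 242 over 3 genes. NCL encodes nucleolin, an RNA-binding protein of pre-ribosomal RNA. Its count was 819 (95% Poisson interval 764 to 877), over positions 232318242 to 232329305 of chromosome 2 (hg19, as are all positions of genes from here on). That placed it 83rd of the protein-coding genes by count and 33rd by counts per kb (74.0), at percentile 99.9 for its length. NPM1, for the histone and ribosome chaperone nucleophosmin, had 242 counts (212 to 274) on chromosome 5 (170814120 to 170837887), or 10.2 per kb. NOLC1, for the snoRNP chaperone Nopp140, had 177 (152 to 205) on chromosome 10 (103911933 to 103923623), or 15.1 per kb. Per kb NCL was 7.27 times NPM1 (6.29 to 8.43), so these nucleolar marker genes stood far apart on this scale.

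NPM1 also has many processed pseudogenes, copies of its mRNA that lie elsewhere in the genome. The table held 18 of them by name, with a median of 10.5 counts (6 to 53) and a sum of 292, more than the 242 of NPM1 itself. The highest were NPM1P7 with 53 counts on chromosome 12, NPM1P27 with 39 on chromosome 5, NPM1P39 with 28 on chromosome 1 and NPM1P6 with 26 on chromosome 8. Of the 18, 12 overlapped no other listed gene, and these summed to 187. Over all 2056 listed pseudogenes the median was 14 counts. How reads that match several copies were placed was not stated, so the count of NPM1 is uncertain to that extent. Other members had few such copies: NCLP1 had 33 counts, NOC2LP1 17, NOC2LP2 8 and NOL8P1 21.

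Proteins of the box C/D snoRNP, which share 1 particle, differed widely in counts. NOP56 had 425 (386 to 467) on chromosome 20 (2632791 to 2639039), NOP58 had 153 (130 to 179) on chromosome 2 (203130439 to 203168389), and FBL, the methyltransferase of the particle, had 46 (33.7 to 61.4) on chromosome 19 (40325098 to 40331081). Per kb the order changed, with NOP56 at 68.0, FBL at 7.69 and NOP58 at 4.03. NOP56 was 16.9 times NOP58 per kb (95% interval 14.0 to 20.4), and FBL was 1.91 times NOP58 (1.34 to 2.67). All 3 lay above the median for their length, at percentiles 99.5, 85.2 and 74.7 for NOP56, NOP58 and FBL. NOP10, the only H/ACA protein that the rule names, had 6 counts (2.20 to 13.1) on chromosome 15 (34633917 to 34635378). Among the other H/ACA proteins, dyskerin (DKC1), the pseudouridine synthase, had 147 counts, GAR1 had 48 and NHP2 had 6.

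Several members hold snoRNA genes in their introns, and those snoRNAs had counts of their own. Across all listed genes there were 2435 pairs with 1 interval inside the other. The inner count exceeded the outer in 0 of these pairs, so inner counts are treated here as part of the outer ones. In NOP56 the 3 listed box C/D snoRNAs were SNORD56 with 48 counts in 71 bases, SNORD110 with 25 in 75 and SNORD57 with 6 in 72. They made up 18.6% of the NOP56 count (95% Clopper-Pearson interval 15.0 to 22.6%) in 3.49% of its length. Density was 362 counts per kb within the 3 intervals and 57.4 per kb over the other 6.03 kb, a ratio of 6.32 (4.88 to 8.09). Only listed snoRNAs enter this ratio, and the table's minimum of 6 counts gives a listed interval of 75 bases at least 80 per kb. Any snoRNA below that minimum would count with the rest. The 3 listed snoRNAs were not alike: the ratio was 11.1 (8.03 to 15.0) for SNORD56 and 5.14 (3.29 to 7.71) for SNORD110, but 1.23 (0.448 to 2.70) for SNORD57. SNORD57 had the minimum of 6 counts, so its ratio is the one that the minimum sets. SNORD56 ranked 8th of the 83 listed genes named SNORA or SNORD by count, and SNORD57 ranked 77th. The 6 snoRNAs listed inside members had a median of 10 counts and 136 per kb, below the medians of 15 counts and 185 per kb over all 83.

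The snoRNAs of NCL and NOP58 had fewer counts than SNORD56 and SNORD110. In NCL, SNORD82 had 12 counts and SNORD20 had 8, together 2.44% of the NCL count (1.498 to 3.75%) in 1.36% of its length, and 73.2 counts per kb remained outside them. In NOP58, SNORD11 had 8 of the 153 counts, or 5.23% (2.28 to 10.0%), in 0.232% of the length. Its density was 90.9 per kb and that of the rest of NOP58 was 3.83. The table's minimum of 6 counts alone gives any listed interval of 88 bases at least 68.2 per kb, or 17.8 times that rest, so the ratio of 23.7 (10.1 to 48.0) follows largely from SNORD11 being listed. In NCL and NOP56 that minimum is 1.02 to 1.38 times the density of the rest. Without these intervals NCL and NOP56 had 73.2 and 57.4 counts per kb, beside 3.83 for NOP58. How much of each snoRNA the cells held was not analysed here.

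**Figure D3:**
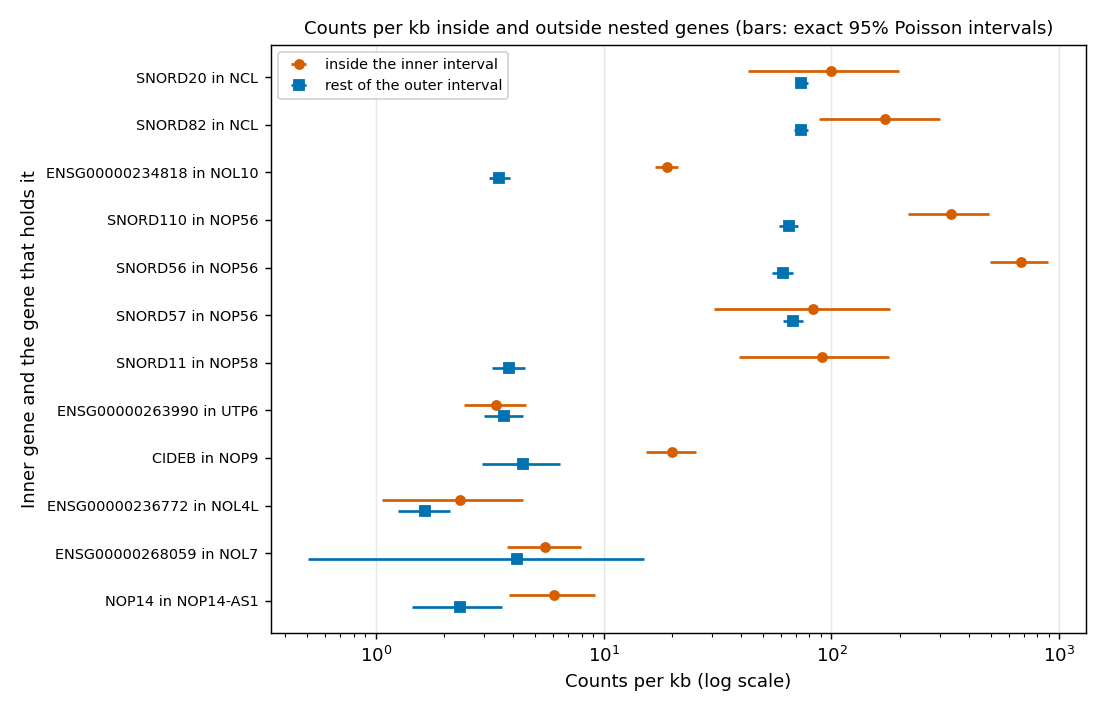
Counts per kb on a log axis inside an inner listed interval (orange circles) and over the rest of the interval that holds it (blue squares), for 12 nested pairs that involve a member, with exact 95% Poisson intervals. The inner density is several times the outer one for SNORD56 and SNORD110 in NOP56, CIDEB in NOP9 and an antisense gene in NOL10, SNORD11 in NOP58 lies near the level that the minimum of 6 counts sets, and for SNORD57, SNORD20, the lincRNA in UTP6, the antisense gene in NOL4L and the entry in NOL7 the bars overlap.

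Small-subunit processome genes were the largest group, with 18 genes, a median of 87 counts (12 to 657) and 46.3% of the members' summed count. Of the 18, 8 had 100 counts or more and 16 lay above the median for their length. Of all listed protein-coding genes, 26.1% and 49.6% met these rules. NOL10, a WD-repeat processome protein, was highest at 657 counts (608 to 709) on chromosome 2 (10710892 to 10830098). Its interval was also the longest of the members, at 119 kb, and its density was 5.51 per kb. UTP20, a large helical-repeat scaffold of the processome, had 341 (306 to 379) on chromosome 12 (101673887 to 101780394), or 3.20 per kb over 107 kb. Both densities exceeded the protein-coding median of 1.54 per kb, and for their length NOL10 and UTP20 lay at percentiles 98.3 and 89.3. These 2 long genes ranked lower per kb (1829th and 3384th of the listed protein-coding genes) than by count (151st and 605th).

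UTP3, a processome protein with a gene of only 2.07 kb, had the reverse pattern. It had 183 counts (157 to 212) on chromosome 4 (71554196 to 71556267), which at 88.3 per kb was the highest density of all members and 24th of the listed protein-coding genes. The intervals of this density (76.0 to 102 per kb) and of NCL (69.0 to 79.3) overlap, as do those of NCL and NOP56 (61.7 to 74.8). Overlap of separate intervals does not show that densities are alike, and no ratio was computed for these pairs. The intervals of UTP3 and NOP56 do not overlap. The fourth highest density, 16.6 per kb for UTP14C, lay well below those of UTP3, NCL and NOP56.

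UTP25 had 168 counts (144 to 195) on chromosome 1 (210001352 to 210030910), or 5.68 per kb. UTP6, UTP11 and NOL11 had 146, 114 and 111 counts, of which NOL11 and the lower UTP4 (29) and UTP15 (12, interval 6.20 to 21.0) belong to the subcomplex that also acts in transcription of ribosomal DNA. Below 100 counts came NOP9, a Pumilio-type RNA-binding protein, with 90, UTP18 with 84, NOL6, the human counterpart of yeast Utp22, with 78, UTP23 with 33 and NOL7 with 32. UTP18 and UTP6 belong to 1 subcomplex and had 2.25 and 3.57 counts per kb. NOP14 and NOC4L, which bind each other, had 23 counts (14.6 to 34.5) and 12 (6.20 to 21.0). Per kb NOP14 was 4.05 times NOC4L (1.93 to 8.93), over a NOP14 interval of only 3.78 kb on chromosome 4 (2939660 to 2943443). The NOC4L interval lay on chromosome 12 (132628993 to 132636986) and that of UTP15 on chromosome 5 (72861268 to 72864257). Intervals as short as those of NOP14 and UTP15 need not span the whole gene, so their counts cover the deposited stretch only.

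UTP14A and UTP14C encode related processome proteins, and UTP14C is a retrotransposed copy of UTP14A. UTP14C had 148 counts (125 to 174) on chromosome 13 (52598827 to 52607736) and UTP14A 64 (49.3 to 81.7) on chromosome X (129040159 to 129063728). UTP14A thus held 30.2% of the pair's counts (24.1 to 36.9%), and per kb it was 0.163 times UTP14C (0.120 to 0.221). Both values are uncertain, because reads could be placed on either copy and because both intervals overlap another listed gene. The UTP14C interval shares 4967 bases with ALG11, a glycosylation gene with 139 counts. UTP14A lies within an antisense gene of 88.5 kb (ENSG00000235189), and both had 64 counts. Subtraction leaves 0 counts for the other 64.9 kb of that antisense interval, where a count of 0 allows up to 3 (the one-sided 95% limit), so its listed count cannot be told apart from that of UTP14A.

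Large-subunit assembly genes were lower by count, with a median of 46 over 7 genes (32 to 258), near the 43 of all listed protein-coding genes. Of the 7, 2 had 100 counts or more and 6 lay above the median for their length, against 26.1% and 49.6% of all listed protein-coding genes. NOL8 led with 258 counts (227 to 291) on chromosome 9 (95059640 to 95087838), or 9.15 per kb, and NOC3L had 220 (192 to 251) on chromosome 10 (96092983 to 96122696), or 7.40 per kb. The NOL8 interval shares 73 bases with CENPP, a centromere protein gene of 227 counts. NOP2, a methyltransferase of large-subunit ribosomal RNA, had 94 counts, NOP16 had 46, NOP53, which recruits the exosome to the precursor, had 44 and NOL9, a polynucleotide kinase of precursor processing, had 38. NOC2L, the partner of NOC3L, had 32 counts (21.9 to 45.2) in an interval of 2.86 kb, so that the pair differed by count but per kb by a ratio of 1.51 (1.01 to 2.20). As for NOP14 and UTP15, so short an interval need not span the whole gene, and the ratio covers the deposited stretches only. Per kb this group's median was 8.47, above the 4.80 of the small-subunit processome, so the order of the 2 groups depended on the scale.

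NOL3 and NOL4L fit the rule by name and have no known role in ribosome assembly. NOL3, for an inhibitor of cell death, had 28 counts (18.6 to 40.5) on chromosome 16 (67204057 to 67208751), or 5.96 per kb, and NOL4L had 69 (1.71 per kb). Both lay above the median of their length groups, at percentiles 69.7 and 59.5. Leaving them out moved the members' median from 87 to 92.

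Overlapping genes touched 14 of the 34 members (41.2%, beside 34.7% of listed protein-coding genes). Besides the snoRNAs, 2 antisense genes, a lincRNA gene and a pair of protein-coding genes lay wholly inside a member. In NOL10, an antisense gene of 15.7 kb (ENSG00000234818, chromosome 2, 10729292 to 10744956) had 296 counts. These were 45.1% of the NOL10 count (41.2 to 48.9%) in 13.1% of its length, at 18.9 per kb against 3.49 per kb over the rest, a ratio of 5.42 (4.63 to 6.34). NOL10 without this stretch had 361 counts. In NOP9, the gene CIDEB held 63 of 90 counts in 34.2% of the length, a ratio of 4.49 (2.82 to 7.33), and LTB4R2, with 36 counts, overlaps there too. Shorter overlaps joined UTP4 with CHTF8 (54 counts, 1280 shared bases) and UTP15 with ANKRA2 (22 counts, 244 shared bases). The lincRNA gene in UTP6 (ENSG00000263990), with 43 counts, had a density of 0.921 times (0.630 to 1.33) that of the rest of UTP6, and the antisense gene in NOL4L had 9 counts, a ratio of 1.42 (0.621 to 2.89). An unnamed protein-coding entry (ENSG00000268059) covered 91.8% of NOL7 and held 30 of its 32 counts. NOP14 itself lies inside NOP14-AS1, an antisense gene with 44 counts, and was 2.60 times as dense (1.38 to 4.94) as the rest of it. Whether strand was used in counting was not stated, so these counts do not say which of the overlapping genes the RNA came from. For genes on opposite strands, the shares, remainders and ratios given here assume that strand was ignored.

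The density of the members was also set against that of their neighbours, the nearest listed protein-coding genes on each side that do not overlap them, a comparison chosen after the counts had been seen. With both neighbours present for 33 members, 21 (63.6%) had more counts per kb than either, against 33.6% of all listed protein-coding genes with 2 neighbours. That share was not matched for length. The members' intervals were shorter than most, and the minimum of 6 counts raises counts per kb in short intervals. UTP3, at 88.3 per kb, lay between MUC7, a salivary mucin gene with only 7 counts, at 0.161 and GRSF1 at 5.59. NCL, at 74.0, lay between ARMC9 at 0.730 and PTMA, for the nuclear protein prothymosin, at 9.97. NPM1, at 10.2, lay between RANBP17 at 0.444 and FGF18 at 1.11. Among the 12 members that did not exceed both, NOL10 (5.51) was lower than ODC1, a polyamine synthesis gene at 27.9, NOP2 (8.47) was lower than CHD4, a chromatin remodeller at 17.9, and FBL (7.69) was lower than PSMC4, a proteasome gene at 12.6. UTP23 (4.03), on chromosome 8, lay beside RAD21, a cohesin gene, at 16.9. The genes were spread over 17 chromosomes.

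The remaining genes of ribosome production were summarised in the same way. Of 95 genes in 5 lists that share no gene with the members, 90 were listed, with a median of 84 counts and 4.45 per kb. Of these 90, 36 (40.0%) had 100 counts or more and 74 (82.2%) lay above the median for their length. The shares of all listed protein-coding genes were 26.1% and 49.6%. RNA polymerase I and its factors had a median of 146.5 over 14 of 15 genes, led by TAF1D, a promoter factor, with 414 and POLR1B, the second largest subunit, with 337. POLR1H was lowest with 24. The RNA exosome, which trims precursor ends, had a median of 114 over 9 of 12 genes, led by the helicase MTREX with 277 and the nuclease EXOSC10 with 188, with EXOSC1 at 7. Other small-subunit proteins had a median of 98.5 over 28 of 29 genes, led by HEATR1 with 486 and the GTPase BMS1 with 456, with IMP3 at 13. Other large-subunit factors had a median of 70 over 31 genes, led by the giant ATPase MDN1 with 1016 and the helicase DDX27 with 390. The lowest of them were DDX51, WDR18 and WDR74 with 7 each. Other snoRNP proteins had a median of 58.5 over 8 genes, from 304 for the assembly ATPase RUVBL1 and 147 for DKC1 down to 6 for NHP2. PES1 and WDR12, the partners of BOP1, had 76 and 57 counts. Among the leading genes of these lists, TAF1D, MTREX, HEATR1, MDN1, DDX27 and RUVBL1 overlap another listed gene. Their counts can therefore include RNA of that gene. TAF1D had 35.9 counts per kb, beside a median of 4.87 for the polymerase I list.

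**Figure D4:**
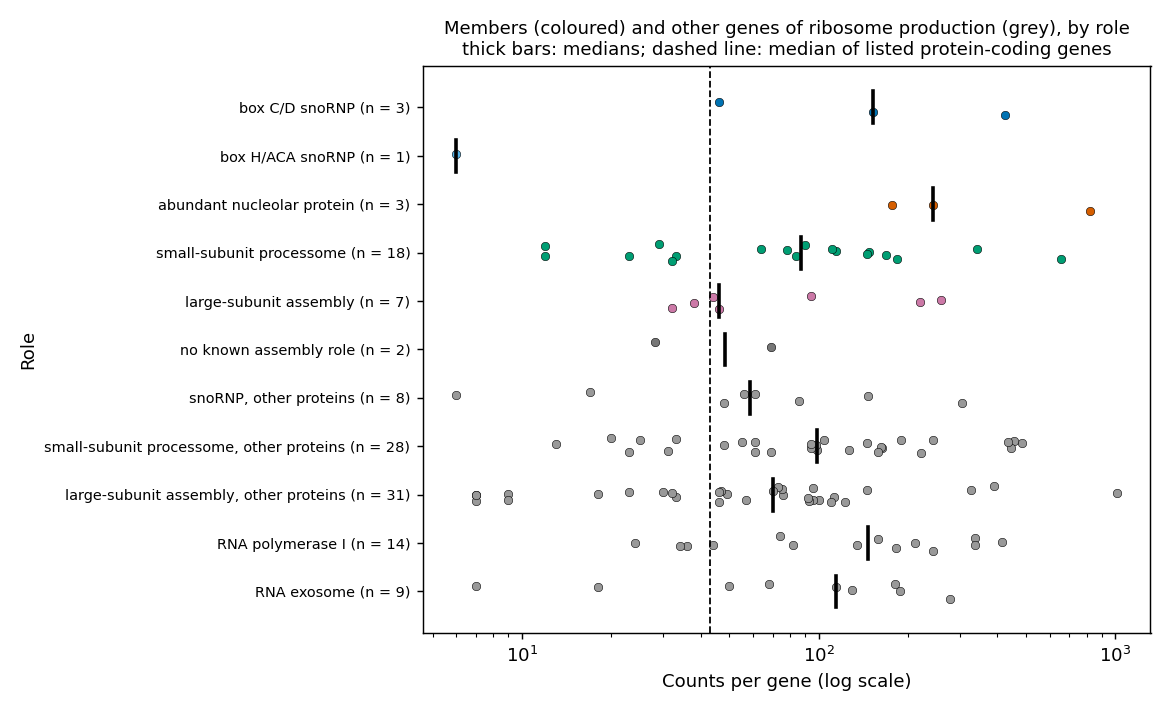
Counts per gene on a log axis for the members by role (coloured) and for the 90 other listed genes of ribosome production (grey), each point a gene, with thick bars at the medians. The dashed line is the median of listed protein-coding genes, 43 counts; every group median except that of the single H/ACA member lies above it, and each group with 7 or more genes has some on both sides.

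Another 3 gene families give a frame for these levels, with no test between them in 1 sample. Cytosolic ribosomal protein genes, 81 of them, had a median of 62 counts and 12.1 per kb, over intervals with a median of 5.08 kb. Mitochondrial ribosomal protein genes, 66 of them, had 29 counts and 3.60 per kb, and 47 DDX and DHX helicase genes had 78 counts and 3.20 per kb. The share at 100 counts or more was 27.2%, 16.7% and 42.6% in that order, beside 44.1% for members and 26.1% for all listed protein-coding genes.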

How the data were processed

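The authors deposited 1 table for the merged sample, with whole-number counts per Ensembl gene interval, not scaled for depth or length. Bowtie and bedtools were used with the hg19 build, per the submitters' processing notes. Their versions, what each did, and how duplicates, multiply matching reads and strand were treated are not given in the sources. The lowest listed count was 6, so the sum of the table is not the library size.

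Symbols were looked up by Ensembl identifier: 16520 of the 17201 had one and 681 had none. From the deposited counts, counts per kb of interval, exact 95% Poisson and Clopper-Pearson intervals, density ratios with exact conditional intervals, and percentiles within 10 length groups of protein-coding genes were computed (Python 3.11.15, pandas 2.3.3, SciPy 1.17.1). These steps were tested on simulated data. No test was run, because there is 1 merged sample and no other group. Every member is named. The 10 highest, the 5 lowest and the members of 7 partner pairs are given with counting interval and, for most, position. Members that overlap a listed gene, and the 2 highest and the lowest gene of each other list, are also given. Comparison with protein lengths was not run. Members and lists were chosen with earlier results of these data known. Promoter windows are from RefSeq, GRCh38.p14, and no position was converted between builds.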

Additional observations from a re-analysis of the deposited data

How the results depend on the processing

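Of 35 alternative values, 8 were medians given per kb in place of counts, a change of unit that cannot be read as stability or its lack. Of the other 27, 15 stayed within the 95% interval of the main value (the range, for roles under 6 genes) or within 1.5 times for numbers of genes, and 12 did not. For the 7 large-subunit genes that interval was also the full range. The median of part of a group cannot leave the range of the group. For these roles, staying within it without overlapping genes was therefore fixed in advance and says nothing about stability. The members' median stayed between 78 and 92 counts under a minimum of 10 counts, without overlapping genes, without NOL3 and NOL4L, and without the 3 highest members. Without genes that overlap another listed gene, 20 of the 34 members were left, because fewer genes remain. Of these 20, 8 had 100 counts or more (40.0%, against 23.6% of 7982 protein-coding genes), and 12 of 19 exceeded both neighbours (63.2%, against 33.2%). Of the same 20, 17 lay above the median for their length, a rule for which the share of the 7982 was not computed. At 200 counts or more there were 7 members (20.6%, against 11.6%), and at 50 or more 21 (61.8%, against 45.7%). The median of the protein-coding genes was 52 at a minimum of 10 counts and 38 without overlapping genes, and that of listed genes of all biotypes was 31. The share of the protein-coding sum was 0.945% per kb, 0.313% without overlapping genes and 0.274% without the 3 highest members. Per kb, the medians were 5.82 for the members, 7.69 for box C/D, 4.10 for H/ACA, 15.1 for abundant nucleolar proteins, 4.80 for small-subunit, 8.47 for large-subunit and 3.84 for NOL3 and NOL4L, and 4.45 for the other pathway genes. Without overlapping genes the medians were 46 for box C/D (FBL alone), 6 for H/ACA, 209.5 for abundant nucleolar, 111 for small-subunit and 45 for large-subunit genes, 28 for NOL3 alone and 96 for the other pathway genes. Without SNORD56 the snoRNA share of NOP56 was 8.22%. Medians by role, the other pathway genes and the neighbours without overlapping genes, and NOP56 without SNORD56, were added after seeing the data. Leaving out a replicate, and scaling by coding length, could not be done with the files at hand. No paired analysis was possible because the table merges both replicates. Depth limits NOP10, UTP15 and NOC4L most.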
